A study of Mus musculus with 27 samples.

Results

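The forkhead genes encode transcription factors that share a winged-helix DNA-binding domain and are named Fox with a letter for the subfamily and a number. They were taken here as every row of the expression tables whose gene symbol is Fox followed by a letter from a to s and a number, which gave 44 of 20156 genes, in the subfamilies a to s. Some members open or hold chromatin at enhancers, others act at the end of a signalling pathway, and many are used in 1 embryonic lineage and kept silent elsewhere. In silent lineages their CpG-rich promoters are well known carriers of H3K27me3, the mark set by the Polycomb complex PRC2, whereas H3K4me3 marks active or poised promoters and H3K9me3 marks heterochromatin.

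The study followed mouse cells through reprogramming by retroviral Yamanaka factors in 3 cell types, which are MEFs (embryonic fibroblasts), pre-iPSCs (stable partly reprogrammed clones) and iPSCs. The MEFs came from E13.5 embryos of Oct-GFP transgenic males (CBA/CaJ x C57BL/6J) and 129Sv/Jae females, with a hemizygous Oct4-GFP allele and a Rosa26 allele, and the pre-iPSCs and iPSCs were derived from such MEFs. RNA-seq and MNase ChIP-seq of H3, H3K4me3 and H3K27me3 each gave 2 libraries per cell type, and H3K9me3 gave 1. The pre-iPSCs and iPSCs grew on MEF feeder layers in ES cell medium with LIF, so their RNA can hold fibroblast transcripts, and MEF nuclei were digested with more MNase for a shorter time than the other nuclei. The study worked with a pair of pre-iPSC clones and their iPSCs, but the labels do not tie a library to a clone, and p-values measure the spread between these samples.

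Where a pair of values is given for a cell type, replicate 1 comes first. In bulk samples fewer cells that express a gene and less RNA per cell cannot be told apart. The nucleosome calls held 67362868 to 108211816 reads in the 6 H3 libraries, 12007350 to 13146349 for H3K4me3, 13224775 to 15222040 for H3K27me3 and 12222861 to 12942154 for H3K9me3. The H3 libraries of pre-iPSC replicate 1 and iPSC replicate 1 stood apart, since their promoter reads rose with GC content (Spearman rho 0.618 and 0.575 over all promoters) while the other 4 gave -0.337 to -0.179. In the 4 ChIP libraries of iPSC replicate 1, chromosome 8 held 7.45 to 7.78% of the reads, against 5.16 to 5.79% in the other 17 libraries. In RNA the 672 tested genes of chromosome 8, where Foxc2 and Foxf1a lie, had a median log2 FPKM difference of 0.52 between iPSC replicates 1 and 2, and the 11729 others one of 0.004. Chromosome X held 3.01 to 4.12% of the reads in the 7 MEF libraries and 1.31 to 2.59% in the other 14. Of the markers, the 12 fibroblast genes summed to 4548 and 4362 FPKM (fragments scaled to transcript length and to library depth) in MEFs and to 102 to 321 in the other libraries, with none listed at 0 in any library. The 12 pluripotency genes summed to 0.168 and 1.06 FPKM in MEFs, where 9 and 7 of them were listed at 0. They summed to 930 and 3710 FPKM in pre-iPSCs, of which 378 and 3184 were Pou5f1, itself a reprogramming factor, and to 2473 and 2405 in iPSCs. In pre-iPSCs Zfp42 and Dppa3 were listed at 0 in replicate 1, and Nanog, Dppa3 and Lin28a in replicate 2.

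Forkhead promoters were rich in CpG, the composition on which Polycomb marks are common. In the window of 1000 bp either side of the TSS, the ratio of observed to expected CpG had a median of 0.759 over the 44 members and of 0.502 over all 20156 genes. It reached 0.6 in 31 members (70.5%) and in 7379 genes (36.6%). The members whose expression changed most were not all of this kind, and the 250 bases that end just before the TSS are printed for 4 of them, in mm9. Foxc2 (chr8:123639821-123640070, plus strand) and Foxd1 (chr13:99123950-99124199, plus strand) have CpG-rich windows with ratios of 0.873 and 0.891. Foxs1 (chr2:152758945-152759194, minus strand) and Foxh1 (chr15:76500304-76500553, minus strand) have CpG-poor windows with ratios of 0.301 and 0.307. Capitals mark the CpG dinucleotides, and each sequence reads 5′ to 3′ on the strand of the gene.
Foxc2: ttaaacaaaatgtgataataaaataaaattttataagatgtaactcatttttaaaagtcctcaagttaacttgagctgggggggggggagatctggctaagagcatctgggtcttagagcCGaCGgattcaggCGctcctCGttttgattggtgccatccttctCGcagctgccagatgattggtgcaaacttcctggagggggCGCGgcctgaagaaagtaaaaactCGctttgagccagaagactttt
Foxs1: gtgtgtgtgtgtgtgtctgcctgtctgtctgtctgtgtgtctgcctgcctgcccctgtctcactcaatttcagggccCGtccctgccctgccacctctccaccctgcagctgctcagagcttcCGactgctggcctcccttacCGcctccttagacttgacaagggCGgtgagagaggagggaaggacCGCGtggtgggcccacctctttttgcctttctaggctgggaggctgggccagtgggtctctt
Foxd1: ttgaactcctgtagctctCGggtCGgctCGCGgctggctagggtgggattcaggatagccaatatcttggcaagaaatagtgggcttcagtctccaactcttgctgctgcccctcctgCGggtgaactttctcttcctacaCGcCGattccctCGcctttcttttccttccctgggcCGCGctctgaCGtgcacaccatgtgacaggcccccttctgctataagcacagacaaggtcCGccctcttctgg
Foxh1: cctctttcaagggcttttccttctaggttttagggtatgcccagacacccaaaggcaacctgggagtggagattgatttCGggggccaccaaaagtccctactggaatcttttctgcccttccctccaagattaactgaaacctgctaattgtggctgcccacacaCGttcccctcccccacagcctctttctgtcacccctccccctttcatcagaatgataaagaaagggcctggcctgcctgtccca
These 250 bases hold 8 CpGs for Foxc2, 6 for Foxs1, 12 for Foxd1 and 2 for Foxh1, where the median was 16.5 over the members and 11 over all genes. The core forkhead motif GTAAACA occurred on either strand of these 250 bases in 1 of 44 members (2.27%), Foxa1, and in 519 of 20156 genes (2.57%).

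Foxp1 and Foxp4 were among the 5 highest members in all 6 libraries, beside members that differed between the cell types. Between 16 and 19 members reached 1 FPKM in a library, and the members together summed to 149 to 290 FPKM. Foxm1, which drives genes of mitosis, and Foxp1, a repressor with wide expression, held the largest shares of this sum in MEF replicate 1 (15.1% and 14.9%), and Foxp1 and Foxs1 did so in MEF replicate 2 (23.1% and 21.8%). In pre-iPSCs the largest share fell to Foxp4 in replicate 1 (24.1%) and to Foxo4 in replicate 2 (18.2%). In iPSCs it fell to Foxh1 in both libraries (35.4% and 22.4%). At the other end of the family 19 members stayed under 1 FPKM in every library. They were Foxa1, Foxa2, Foxa3, Foxb1, Foxb2, Foxd2, Foxd4, Foxe1, Foxe3, Foxf2, Foxi1, Foxi2, Foxl1, Foxl2, Foxn1, Foxn4, Foxp3, Foxr1 and Foxr2, and Foxb2 was listed at 0 in all 6 libraries. Some of them still differed below that level, such as Foxn4, at 0 in both MEF libraries and 0.992 and 0.858 FPKM in the iPSCs, and Foxf2, at 0.904 and 0.665 FPKM in the MEFs and 0 and 0.0378 in the iPSCs, a pair chosen after their values were seen and not tested. Foxo6 and Foxq1 reached at most 1.09 and 1.29 FPKM. The plot of FPKM by gene shows 22 of the 23 members with a mean of at least 0.5 FPKM, which were tested.

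**Figure D1:**
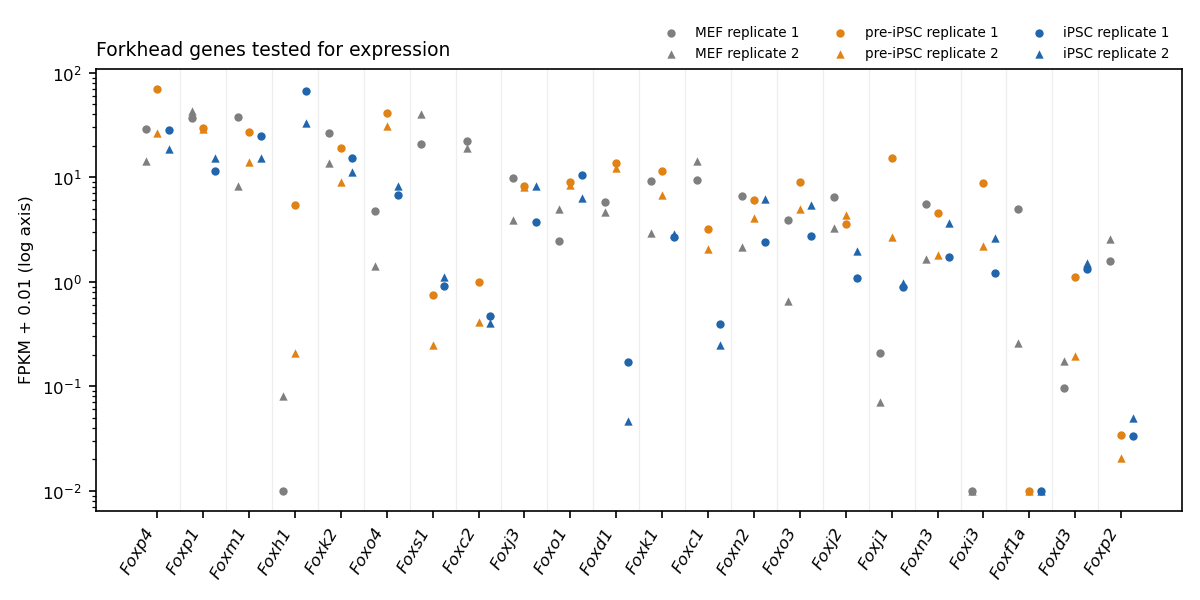
FPKM + 0.01 (log axis) of 22 of the 23 tested forkhead genes in the 6 RNA-seq libraries, ordered by mean, with grey for MEFs, orange for pre-iPSCs and blue for iPSCs, circles for replicate 1 and triangles for replicate 2. Foxs1 and Foxc2 lie highest in MEFs, Foxo4 and Foxd1 in pre-iPSCs and Foxh1 in iPSCs, while Foxk2, Foxm1 and Foxj3 overlap between cell types.

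Expression was compared with limma on log2(FPKM + 1), and calls required an adjusted p below 0.05 over all 12401 tested genes with a log2 change of at least 1. In pre-iPSCs against MEFs 3 members were called higher and 4 lower, that is 30.4% of the 23 against a background of 16.4% of all tested genes (7.39% higher and 9.0% lower). Between pre-iPSCs and iPSCs 1 rose and 2 fell, 13.0% against 8.62% (3.91% and 4.71%). In iPSCs against MEFs 1 was higher and 7 lower, 34.8% against 25.9% (10.3% and 15.5%). The median log2 change of the members was 0.292, -0.463 and -0.23 in these comparisons, beside -0.0441, -0.0928 and -0.142 over all tested genes. Both comparisons with MEFs use the same MEF libraries, and those with pre-iPSCs the same pre-iPSC libraries. The plot of log2 changes gives the members with their intervals.

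**Figure D2:**
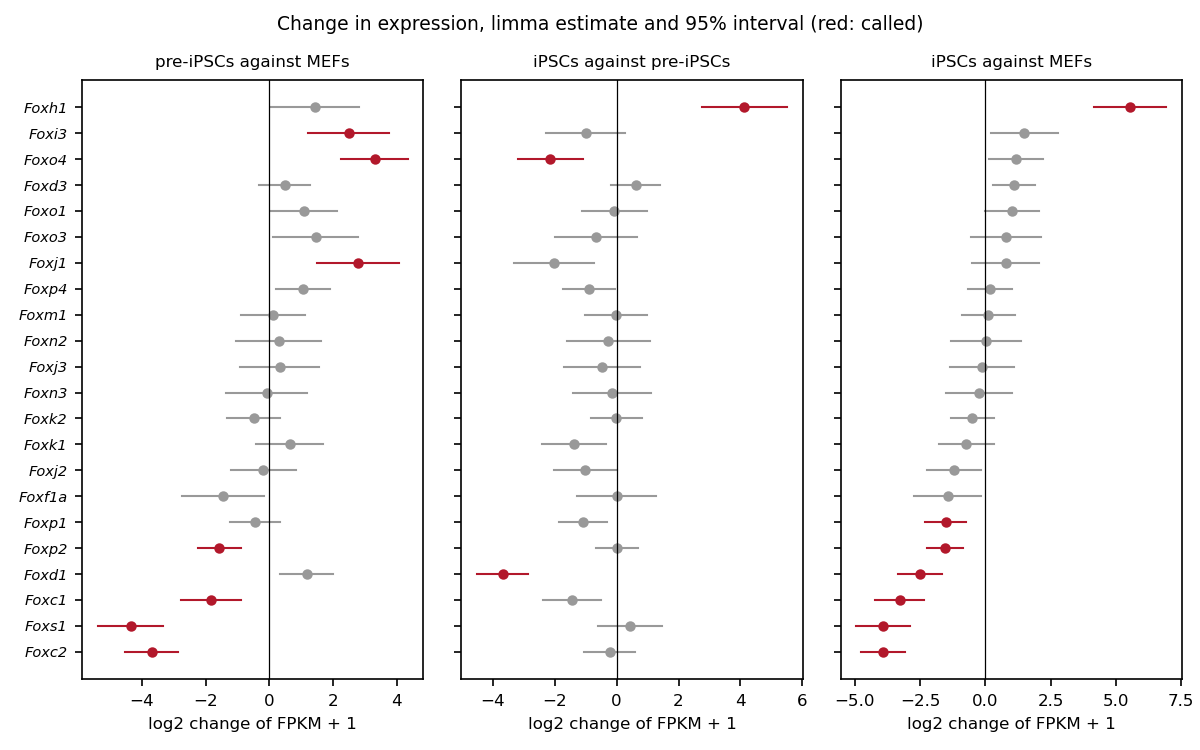
Log2 change of FPKM + 1 with its 95% interval from limma for 22 of the 23 tested members (n = 2 libraries per cell type, table as a term), one panel per comparison, with called members in red. Foxh1 is the only called rise in both comparisons of iPSCs, and Foxc2 and Foxs1 lie at the low end in both comparisons with MEFs.

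The members with the largest called falls from MEFs were Foxc2, Foxs1 and Foxc1. Foxc2, which acts in the formation of vessels and of mesenchyme, had 22.1 and 19.0 FPKM in the MEFs, 0.984 and 0.398 in the pre-iPSCs, and 0.458 and 0.389 in the iPSCs. Both MEF libraries lay above the other 4, and the log2 change was -3.69 ± 0.35 (SE) in pre-iPSCs (adjusted p = 0.00145) and -3.92 ± 0.35 in iPSCs (adjusted p = 0.000991). Foxs1, a gene of pericytes and other perivascular cells, had 20.8 and 40.6 FPKM in the MEFs, 0.743 and 0.241 in the pre-iPSCs, and 0.904 and 1.10 in the iPSCs. Its log2 change was -4.35 ± 0.44 in pre-iPSCs (adjusted p = 0.00169) and -3.91 ± 0.44 in iPSCs (adjusted p = 0.00163), and these 4 calls held under every alternative tried. Foxc1, the paralog of Foxc2, went down in steps, from 9.45 and 14.4 FPKM in MEFs to 3.22 and 2.03 in the pre-iPSCs and then 0.382 and 0.238 in the iPSCs. The groups did not overlap, and the log2 change was -1.83 ± 0.40 from MEFs to pre-iPSCs (adjusted p = 0.0214) and -3.28 ± 0.40 from MEFs to iPSCs (adjusted p = 0.00206). Between pre-iPSCs and iPSCs it was -1.45 ± 0.40 and did not pass (adjusted p = 0.0718). The call in pre-iPSCs was lost in 5 of the 6 fits that left out 1 library, all but the fit without MEF replicate 1, and with no filter on low values. Foxf1a, a gene of visceral mesoderm, had 4.96 and 0.249 FPKM in MEFs and was listed at 0 in the other 4 libraries, and with MEF libraries that far apart neither comparison passed (adjusted p = 0.120 and 0.0947). Beside these falls 10 of 12 fibroblast markers were called lower in both comparisons with MEFs, the exceptions being Lum and Pdgfra. Their part in the forkhead falls was not tested.

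Members of the Foxp subfamily were also lower in iPSCs than in MEFs. Foxp1 had 37.3 and 42.9 FPKM in the MEFs, 29.5 and 28.9 in the pre-iPSCs, and 11.6 and 15.2 in the iPSCs. The 3 cell types did not overlap, and the change in iPSCs against MEFs was -1.52 ± 0.34 (adjusted p = 0.0164). Foxp2, known for its part in neural circuits of vocal learning, had 1.56 and 2.55 FPKM in MEFs and at most 0.0396 in any other library. It was called lower in pre-iPSCs (-1.57 ± 0.29, adjusted p = 0.0115) and in iPSCs (-1.55 ± 0.29, adjusted p = 0.0089), where the added 1 FPKM makes the change look smaller than it is. Foxp2 reached the mean of 0.5 FPKM needed for testing only through the MEFs. Its calls, and its place in the counts of lower members above, therefore support nothing further. Without either iPSC library the calls of Foxp1 and Foxp2 in iPSCs were lost. Foxp4, a relative of Foxp1, had 28.8 and 14.2, 69.8 and 26.8, and 28.4 and 18.6 FPKM in MEFs, pre-iPSCs and iPSCs, and passed in no comparison.

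Foxo4 was called higher in pre-iPSCs than in either other cell type, and Foxd1, Foxj1 and Foxi3 also had their highest means there. Foxo4, which acts with the other FoxO factors downstream of insulin and Akt, had 41.3 and 31.3 FPKM in pre-iPSCs, 4.79 and 1.41 in MEFs and 6.69 and 8.19 in iPSCs. Both pre-iPSC libraries lay above the other 4, and it was called higher than in MEFs (3.31 ± 0.45, adjusted p = 0.00401) and lower again in iPSCs (-2.14 ± 0.45, adjusted p = 0.0284). The rise held under every alternative, whereas the fall was lost without any 1 of the pre-iPSC or iPSC libraries and with no filter on low values. Foxd1, a gene of the kidney stroma and of dermal fibroblasts, had 5.81 and 4.69 FPKM in the MEFs, 13.6 and 12.4 in the pre-iPSCs, and 0.160 and 0.0362 in the iPSCs. The 3 groups did not overlap. It was lower in iPSCs, both against pre-iPSCs (-3.68 ± 0.35, adjusted p = 0.00195) and against MEFs (-2.51 ± 0.35, adjusted p = 0.00344), while the change from MEFs to pre-iPSCs was 1.17 ± 0.35 and did not pass (adjusted p = 0.0655). Foxj1, the regulator of motile cilia, had 15.3 and 2.68 FPKM in pre-iPSCs against 0.196 and 0.0606 in MEFs and 0.881 and 0.964 in iPSCs. Against MEFs it was called higher (2.78 ± 0.55, adjusted p = 0.0149), a call lost without either iPSC library or with no filter on low values, and the change to iPSCs did not pass (-2.01 ± 0.55, adjusted p = 0.0714). Foxi3, a gene of ectodermal placodes and hair, was listed at 0 in both MEF libraries and had 8.87 and 2.19 FPKM in the pre-iPSCs and 1.21 and 2.59 in the iPSCs. The rise in pre-iPSCs was called (adjusted p = 0.0214) except with no filter on low values, and no fold can be given against 0. Its pre-iPSC and iPSC libraries overlapped (-0.996 ± 0.54 in iPSCs, adjusted p = 0.357). The pre-iPSC libraries of Foxj1 and Foxi3 differed from each other by a larger factor than those of Foxo4 and Foxd1. Of 7 epithelial markers 4 were called higher and 2 lower in pre-iPSCs than in MEFs, 4 higher in iPSCs than in pre-iPSCs, and 5 higher and 1 lower in iPSCs than in MEFs. Of the 4 neural markers tested 2 were called higher in pre-iPSCs than in MEFs. Their part in these values was not tested.

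Foxh1, the nuclear partner of Smad2 in Nodal and Activin signalling, was the 1 member called higher in iPSCs. It was listed at 0 in MEF replicate 1 and had 0.071 FPKM in MEF replicate 2, 5.43 and 0.199 in the pre-iPSCs and 67.4 and 33.4 in the iPSCs. Both iPSC libraries lay above all others. The log2 change was 5.55 ± 0.59 against MEFs (adjusted p = 0.0014) and 4.13 ± 0.59 against pre-iPSCs (adjusted p = 0.00728), and 1.42 ± 0.59 from MEFs to pre-iPSCs, which did not pass (adjusted p = 0.148). The call against MEFs held under every alternative, and those of Foxh1 and Foxd1 against pre-iPSCs were lost without either iPSC library, with changes of 4.04 to 4.21 for Foxh1 and -3.69 to -3.66 for Foxd1. That of Foxd1 against MEFs was lost without iPSC replicate 1 (-2.49). The 12 pluripotency markers were all called higher in iPSCs than in MEFs and 9 of 12 higher than in pre-iPSCs. Foxd3, a factor of naive pluripotency and of the neural crest, had 0.0858 and 0.166 FPKM in the MEFs, 1.11 and 0.185 in the pre-iPSCs, and 1.33 and 1.51 in the iPSCs and did not pass against MEFs (1.10 ± 0.34, adjusted p = 0.0524).

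Unlike Foxp1, several other widely expressed members were called in no comparison. Foxm1 had 37.7 and 8.31, 27.3 and 13.9, and 24.9 and 15.2 FPKM in MEFs, pre-iPSCs and iPSCs. Foxk2 had 26.3 and 13.6, 19.2 and 9.02, and 15.3 and 11.2 FPKM, and Foxk1, its paralog, 9.20 and 2.92, 11.5 and 6.71, and 2.70 and 2.88. Foxj3 had 9.78 and 3.88, 8.19 and 8.01, and 3.75 and 8.19 FPKM. Foxo1, the FoxO factor best known from metabolism, had 2.44 and 5.01 FPKM in MEFs, below all other libraries (8.94 and 8.46, and 10.5 and 6.38), and passed neither in pre-iPSCs nor in iPSCs against MEFs (adjusted p = 0.144 and 0.134). The tested members Foxj2, Foxn2, Foxn3 and Foxo3 were not called either. MEF replicate 1 exceeded replicate 2 for Foxm1, Foxk2 and Foxj3 by more than the means of the cell types differed.

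Genes that work with these factors were counted from lists of the pathways, beside the 16.4%, 8.62% and 25.9% of all tested genes called from MEFs to pre-iPSCs, from pre-iPSCs to iPSCs and from MEFs to iPSCs. Of 12 tested partners and targets of Foxh1 in the Nodal pathway, 1 was higher and 1 lower from MEFs to pre-iPSCs, 4 were higher from pre-iPSCs to iPSCs, and 7 were higher and 2 lower from MEFs to iPSCs. The ligand Nodal was listed at 0 in both MEF libraries and had 10.2 and 0.354 FPKM in pre-iPSCs against 39.1 and 34.4 in iPSCs. Its antagonist Lefty1 had 0.331 and 0.0512, 0.428 and 0.238, and 114 and 187 FPKM (6.96 ± 0.41 on the log2 scale in iPSCs against MEFs, adjusted p = 0.000412). The co-receptor Tdgf1, also among the pluripotency markers, was already high in pre-iPSCs (8.05 ± 0.36 against MEFs, adjusted p = 0.000275), while the effector Smad3 was lower in iPSCs than in MEFs (-1.43 ± 0.36, adjusted p = 0.0254). Of 24 genes of FoxO signalling, 1 was higher and 4 lower from MEFs to pre-iPSCs, 2 and 2 from pre-iPSCs to iPSCs, and 2 and 5 from MEFs to iPSCs. In the first of these, where Foxo4 rose, the superoxide dismutase Sod2 rose by 1.52 on the log2 scale, and the kinase Sgk1, the receptor Igf1r, the kinase subunit Pik3r1 and the insulin receptor substrate Irs1 fell by 2.01, 1.70, 1.67 and 1.66. In the last the kinase Akt1 fell by 2.88, Irs1 by 2.39, Igf1r by 2.37 and Pik3r1 by 1.35, the FoxO targets Klf2 and Gadd45a rose by 1.97 and 1.44, and the FoxO target Bcl6 fell by 1.45. Other targets such as Sesn1, Ccng2, Cdkn1b and Bcl2l11 were not called. Of 15 mitotic targets of Foxm1, 2 were called in any comparison, both higher in iPSCs than in MEFs, Bub1b (1.46 ± 0.44, adjusted p = 0.0487) and Ccnb1 (1.35 ± 0.38, adjusted p = 0.0375). The median log2 change of the 15 was 0.578, 0.233 and 0.715 in the 3 comparisons. Over all tested genes it was -0.0441, -0.0928 and -0.142, and this difference was not tested. Of 12 endoderm genes known as Foxa targets 4 were tested, and 2 were higher and 1 lower in iPSCs than in MEFs. Cldn6 was listed at 0 in MEFs and had 15.4 and 26.2 FPKM in iPSCs, and Krt19 was lower in iPSCs (-2.20 ± 0.44, adjusted p = 0.0120). Gata4 was the other one called higher, and it is also among the 6 markers of primitive endoderm, of which 4 were tested and 1 was called higher and 1 lower in iPSCs than in MEFs.

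H3K4me3 and H3K27me3 were measured as reads of the nucleosome calls within 1000 bp of the TSS and are given in RPKM, reads scaled to the window length and to the unique reads of the library. The level of H3K4me3 over the family was like that of other genes, with a median over members of 0.78 to 1.19 RPKM in the 6 libraries and of 0.812 to 1.22 over all genes. The number of members above the median of all genes was 20 and 16 of 44 in the MEFs, 22 and 26 in the pre-iPSCs, and 30 and 32 in the iPSCs. H3K27me3 lay above the level of other genes in every library, with medians of 0.394 to 0.569 RPKM over members and 0.182 to 0.259 over all genes, and 31 to 35 of 44 members above the median of all genes. It was higher at members of low expression. The 12 members with a mean of at least 5 FPKM had median levels of 0.149 to 0.239 RPKM, and the 19 under 1 FPKM in every library 0.576 to 0.689. Among the 12, Foxc2, Foxs1 and Foxh1 reach that mean only through a single cell type. They are thus counted also in libraries where their expression is low. The heat map of both marks shows this order, from Foxa2, Foxl1 and Foxb1 at the top of H3K27me3 to Foxm1, Foxn2 and Foxo3 at the bottom.

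**Figure D3:**
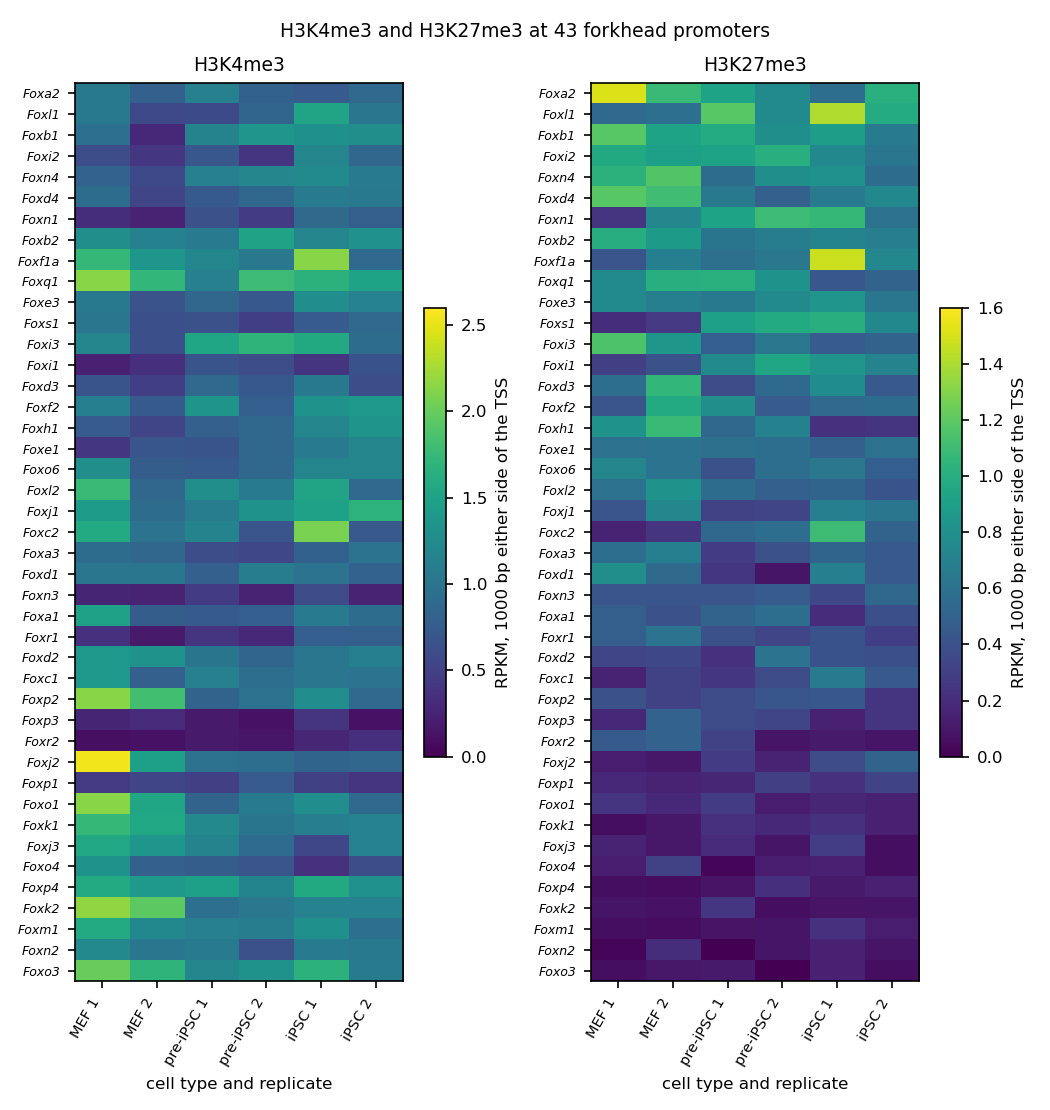
H3K4me3 (left) and H3K27me3 (right) of 43 of the 44 forkhead promoters in RPKM, one column per library and one row per gene, ordered by mean H3K27me3. Silent lineage regulators such as Foxa2, Foxb1 and Foxn4 lie at the top, and the widely expressed Foxk2, Foxm1 and Foxo3 lie at the bottom with at most 0.253 RPKM of H3K27me3 in any library.

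H3K4me3 was tested with edgeR's quasi-likelihood test and called at an adjusted p below 0.05. Of 42 tested members 4 were called higher and 0 lower in pre-iPSCs than in MEFs, 9.52% against a background of 3.87% of 17644 promoters (3.02% higher and 0.856% lower). Between pre-iPSCs and iPSCs 0 were called (background 0.034%, 0.0227% higher and 0.0113% lower), and DESeq2 also called 0. At an unadjusted p below 0.05 edgeR had 4 of the 42 members and 1578 of the 17644 promoters. In iPSCs against MEFs 13 were higher and 1 lower, 33.3% against 13.9% (9.79% higher and 4.15% lower over all). The median log2 change of the members was 0.221, 0.166 and 0.326, beside -0.024, -0.000489 and -0.0339 over all promoters. These counts depend on the scaling between MEFs and the other cells. Without TMM the median of all promoters shifted by -0.37 in pre-iPSCs against MEFs and by -0.34 in iPSCs against MEFs. Of the members 1 was then higher and 3 lower in the former, and 6 higher and 4 lower in the latter. This shift moves every promoter, so these counts do not set the members apart from other genes. DESeq2 called 0 members in any of the 3. The share of all promoters called is not given for either alternative.

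Of the 13 members higher in H3K4me3 in iPSCs 10 stayed under 1 FPKM in every library, as did 19 of all 44 members. The share among all promoters called higher is not given, so this count does not set the members apart from other genes. Foxn1, a gene of thymic epithelium, had 0.339 and 0.255 RPKM in the MEFs, 0.644 and 0.455 in the pre-iPSCs, and 0.900 and 0.789 in the iPSCs, with a log2 change of 1.84 ± 0.40 from MEFs to iPSCs (adjusted p = 0.00173). Foxr1 had 0.373 and 0.191, 0.399 and 0.292, and 0.776 and 0.789 RPKM (1.81 ± 0.42, adjusted p = 0.00297). Both stayed under 0.5 FPKM in every library. Foxh1, the member that rose most in expression, had 0.745 and 0.541 RPKM in the MEFs, 0.797 and 0.877 in the pre-iPSCs, and 1.18 and 1.35 in the iPSCs (1.32 ± 0.31, adjusted p = 0.0031). In each of these 3 genes both iPSC libraries lay above the other 4, and the calls held without any 1 library, although that of Foxh1 was lost with a window of 500 bp. Foxb1, a gene of the early diencephalon, gained the mark by pre-iPSCs, from 0.948 and 0.287 RPKM to 1.16 and 1.36 (1.43 ± 0.32, adjusted p = 0.00524), with 1.30 and 1.28 in iPSCs (1.43 ± 0.32, adjusted p = 0.00212). Its MEF libraries differed by more than any others of it, and both calls were lost without MEF replicate 2, that in pre-iPSCs also without pre-iPSC replicate 2. Foxi3 (1.21 ± 0.27, adjusted p = 0.00627), Foxn4 (1.13 ± 0.30, adjusted p = 0.0200) and Foxi1 (1.48 ± 0.44, adjusted p = 0.0409) were the other members called in pre-iPSCs against MEFs. The call of Foxi3 was lost without replicate 2 of MEFs or pre-iPSCs, that of Foxi1 without MEF replicate 1 or either pre-iPSC library, and that of Foxn4 without any 1 of the 4. Without TMM all 3 were lost and that of Foxb1 held, and with a window of 500 bp those of Foxi3 and Foxn4 were lost.

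The other members higher in H3K4me3 in iPSCs than in MEFs were Foxe1 (1.35 ± 0.34), Foxi2 (1.34 ± 0.35), Foxn4 (1.09 ± 0.30), Foxl1 (1.00 ± 0.30), Foxd4 (0.91 ± 0.31), Foxf2 (0.90 ± 0.28), Foxe3, Foxi3 and Foxj1. All of these calls were lost without at least 1 library, Foxe1 without MEF replicate 1 and Foxi2 and Foxl1 without iPSC replicate 1, Foxl1 also without MEF replicate 2 (0.75 and 0.78). Foxn4 lost it without either MEF library or iPSC replicate 1, Foxi3 without replicate 1 of any cell type or MEF replicate 2, and Foxd4, Foxe3, Foxf2 and Foxj1 without any 1 of the MEF and iPSC libraries. The calls of Foxd4, Foxe3, Foxf2, Foxi3, Foxj1, Foxl1 and Foxn4 were also lost without TMM, and a window of 500 bp ended those of Foxe1 and Foxi2 and, of these 7, all but those of Foxl1 and Foxn4. Foxe1, a gene of the thyroid bud, had 0.406 and 0.700 RPKM in the MEFs, 0.674 and 0.877 in the pre-iPSCs, and 1.09 and 1.18 in the iPSCs. Foxj2 was the member called lower, from 2.54 and 1.46 RPKM in MEFs to 0.981 and 0.942 in the pre-iPSCs and 0.838 and 0.855 in the iPSCs (-0.88 ± 0.26 in iPSCs against MEFs, adjusted p = 0.0192). Its MEF libraries lay above the other 4, and its expression was 6.54 and 3.24, 3.60 and 4.35, and 1.07 and 1.94 FPKM (-1.20 ± 0.44 in iPSCs against MEFs, adjusted p = 0.0843). The H3K4me3 call of Foxj2 was lost without MEF replicate 1 (-0.60) or either iPSC library and with a window of 500 bp.

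H3K27me3 moved in both directions. Of 35 tested members 3 were higher and 3 lower in pre-iPSCs than in MEFs, 17.1% against a background of 8.29% of 10185 promoters (5.03% higher and 3.26% lower). Between pre-iPSCs and iPSCs 0 were called (background 0.805%, 0.668% higher and 0.137% lower), and 0 by DESeq2. At an unadjusted p below 0.05 edgeR had 6 of the 35 members and 1178 of the 10185 promoters. In iPSCs against MEFs 5 were higher and 4 lower, 25.7% against 11.4% (7.28% and 4.1%). The medians over the members were -0.0685, -0.107 and -0.426, and -0.0184, -0.00561 and -0.0177 over all promoters. DESeq2 called 0 members in any of the 3, and its share over all promoters is not given. A promoter for which DESeq2 gave no adjusted p counted as not called, as Foxr2 did in iPSCs against MEFs. The 9 members not tested because of low reads were Foxj3, Foxk1, Foxk2, Foxm1, Foxn2, Foxo1, Foxo3, Foxo4 and Foxp4, all of them expressed. With a window of 500 bp Foxc2, Foxj2 and Foxr2 were also not tested.

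Foxs1 and Foxc2, the members that fell most from MEFs, gained H3K27me3. Foxs1 had 0.212 and 0.265 RPKM in the MEFs, 0.900 and 0.978 in the pre-iPSCs, and 1.01 and 0.746 in the iPSCs. Both MEF libraries lay below the other 4, and the log2 change was 1.93 ± 0.38 in pre-iPSCs (adjusted p = 0.00037) and 1.79 ± 0.39 in iPSCs (adjusted p = 0.000789), both held without any 1 library, the second lost with a window of 500 bp. Foxc2 had 0.151 and 0.238 RPKM in the MEFs, 0.534 and 0.580 in the pre-iPSCs, and 1.09 and 0.507 in the iPSCs, again with MEFs below all others (1.46 ± 0.45, adjusted p = 0.0301, and 1.94 ± 0.42, adjusted p = 0.000919). The call in pre-iPSCs was lost without any 1 of the MEF or pre-iPSC libraries. That in iPSCs was lost without iPSC replicate 1 (1.26) and held at 1.62 when each library was scaled to its reads on the same chromosome, an alternative added after the share of chromosome 8 was seen. Foxc1 had 0.151 and 0.318, 0.253 and 0.367, and 0.662 and 0.448 RPKM and did not pass in iPSCs against MEFs (1.14, adjusted p = 0.066). Foxi1, a gene of the inner ear and of ionocytes that stayed under 1 FPKM here, rose from 0.303 and 0.397 RPKM to 0.759 and 0.947 in pre-iPSCs (1.25 ± 0.36, adjusted p = 0.0166) and had 0.835 and 0.716 in iPSCs (1.06 ± 0.36, adjusted p = 0.0432). The call of Foxi1 in pre-iPSCs was lost in 3 of 6 fits without 1 library, those without either MEF library and without pre-iPSC replicate 2, and that in iPSCs in all 6. Both were also lost with a window of 500 bp. Foxj2 had 0.121 and 0.106 RPKM in the MEFs, 0.281 and 0.153 in the pre-iPSCs, and 0.374 and 0.507 in the iPSCs (1.86 ± 0.54, adjusted p = 0.0160), a call lost without any 1 of the MEF or iPSC libraries. Foxl1, a neighbour of Foxc2 on chromosome 8, had 0.545 and 0.583, 1.18 and 0.764, and 1.41 and 0.985 RPKM (1.01 ± 0.31 in iPSCs against MEFs, adjusted p = 0.0235). Its call was lost without iPSC replicate 1 (0.71) or either MEF library and with chromosome scaling (0.70), which also ended its H3K4me3 call (0.68).

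Foxh1 was the 1 member called both for lower H3K27me3 and for higher expression in the same comparison, iPSCs against MEFs. Foxh1 had 0.818 and 1.09 RPKM in the MEFs, 0.534 and 0.703 in the pre-iPSCs, and 0.230 and 0.239 in the iPSCs. The 3 cell types did not overlap, and the log2 change in iPSCs was -2.08 ± 0.38 against MEFs (adjusted p = 0.000111), held without any 1 library and lost with a window of 500 bp, and -1.43 ± 0.42 against pre-iPSCs, which did not pass (adjusted p = 0.0823). Foxd1 had 0.788 and 0.556 RPKM in the MEFs, 0.253 and 0.0917 in the pre-iPSCs, and 0.691 and 0.448 in the iPSCs, and was thus lowest in the cell type where its expression was highest. Against MEFs it was lower in pre-iPSCs (-1.92 ± 0.45, adjusted p = 0.00298), a call lost without pre-iPSC replicate 2 (-1.42) or with a window of 500 bp, and the change of 1.63 ± 0.47 from pre-iPSCs to iPSCs did not pass (adjusted p = 0.0744). Foxi3 had 1.15 and 0.847, 0.478 and 0.642, and 0.461 and 0.507 RPKM and was lower in iPSCs than in MEFs (-1.10 ± 0.33, adjusted p = 0.0181). The call of Foxi3 was lost without MEF replicate 1 or iPSC replicate 1 and with a window of 500 bp. Foxr2 lies on the X chromosome, which held a larger share of the reads in MEFs. It had 0.454 and 0.503, 0.309 and 0.0917, and 0.115 and 0.0895 RPKM and was lower in iPSCs than in MEFs (-2.25 ± 0.55, adjusted p = 0.00304). The call of Foxr2 held without any 1 library, and at -1.72 with chromosome scaling. Foxr2 was listed at 0 FPKM in MEFs and pre-iPSCs and had 0.673 and 0.736 in iPSCs. Foxq1 was lower in iPSCs than in MEFs (-0.98 ± 0.33, adjusted p = 0.0421), with 0.757 and 1.01, 1.01 and 0.825, and 0.432 and 0.507 RPKM, and lost the call without either iPSC library or MEF replicate 2. Foxd4 was lower in pre-iPSCs, with 0.647 and 0.489 RPKM against 1.18 and 1.11 in MEFs (-1.02 ± 0.31, adjusted p = 0.0248), and this call was lost without MEF replicate 1 or either pre-iPSC library and with a window of 500 bp.

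Changes in expression and in H3K27me3 are set side by side for the members tested in both. These had to reach a mean of 0.5 FPKM, which Foxd3, Foxf1a and Foxp2 did only through the cell type where they are high, and members of low expression or few H3K27me3 reads are missing, so the values describe this set and support nothing further. Over these 14 members Pearson's r was -0.788 in pre-iPSCs against MEFs, -0.857 from pre-iPSCs to iPSCs and -0.809 from MEFs to iPSCs (Spearman's rho -0.719, -0.697 and -0.653). Over all 4474 genes measured in both it was -0.596, -0.503 and -0.617. Genes are not independent replicates, and the values of a comparison share their libraries. Of the members called for expression and tested for H3K27me3, which leaves out Foxo4, 6 of 6, 2 of 2 and 5 of 8 had an H3K27me3 change of the opposite sign, where all genes called and tested gave 86.7%, 83.2% and 86.5%. The exceptions, in iPSCs against MEFs, included Foxd1 and Foxp2, whose expression fell without a higher H3K27me3 level. The relation of expression with H3K4me3 was weaker, with r of 0.299, 0.535 and 0.278 over 23 members and 0.368, 0.224 and 0.315 over 12190 genes. The H3K4me3 change was opposite in sign to that of expression in 2 of 7, 0 of 3 and 6 of 8 of the members called for expression, and in 25.2%, 30.7% and 28.8% of all called genes. The scatter of both changes names the members called in either.

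**Figure D4:**
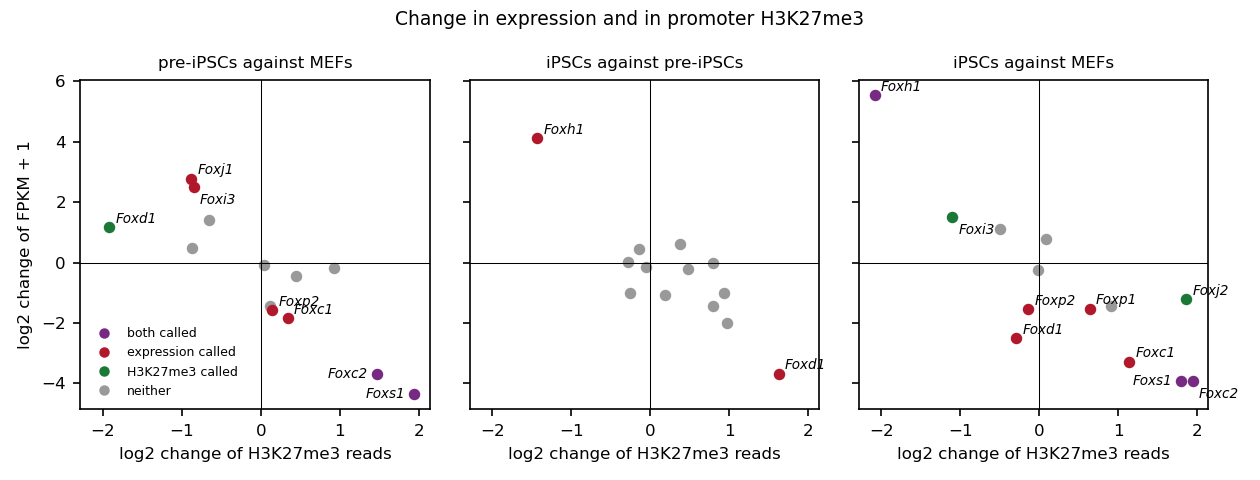
Log2 change of FPKM + 1 (vertical) against log2 change of H3K27me3 reads (horizontal) for 13 of the 14 forkhead genes tested in both, one panel per comparison. Purple points were called in both, red for expression, green for H3K27me3 and grey in neither, with Foxs1 and Foxc2 at the lower right of both comparisons with MEFs and Foxh1 at the upper left in iPSCs.

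Several members are clustered in the genome, and 2 such groups were examined. Foxf1a, Foxc2 and Foxl1 lie side by side on chromosome 8, and the region that spans them with 5000 bp added on each side (chr8:123603286-123659544) had an H3K27me3 level of 0.542 ± 0.096 RPKM in MEFs, 0.683 ± 0.014 in the pre-iPSCs and 0.943 ± 0.261 in the iPSCs (SD, n = 2). The iPSC libraries were 1.13 and 0.759 RPKM, both above the MEF libraries of 0.474 and 0.609, and the higher of them is the replicate with more reads on chromosome 8. H3K4me3 of this region was 0.842 ± 0.175, 0.681 ± 0.027 and 1.03 ± 0.32 RPKM, and its MEF and iPSC libraries overlapped. In MEFs H3K27me3 was high around Foxf1a and low from midway between Foxf1a and Foxc2 up to Foxl1, as the profile over distance shows. At Foxf1a itself the level within 1000 bp of the TSS was 0.424 and 0.689, 0.591 and 0.642, and 1.47 and 0.746 RPKM (0.91 in iPSCs against MEFs, adjusted p = 0.0511). Foxq1, Foxf2 and Foxc1 on chromosome 13 (chr13:31645039-31907504) had 0.656 ± 0.013 RPKM of H3K27me3 in MEFs, 0.514 ± 0.012 in the pre-iPSCs and 0.526 ± 0.025 in the iPSCs, MEFs being above the others, and 0.497 to 0.502 of H3K4me3 in every cell type. Within this group Foxc1 fell in expression, Foxf2 had 0.904 and 0.665 FPKM in MEFs and at most 0.186 elsewhere, and Foxq1 had its 0.832 and 1.29 FPKM in iPSCs against at most 0.443 elsewhere. The levels of these regions were not tested.

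**Figure D5:**
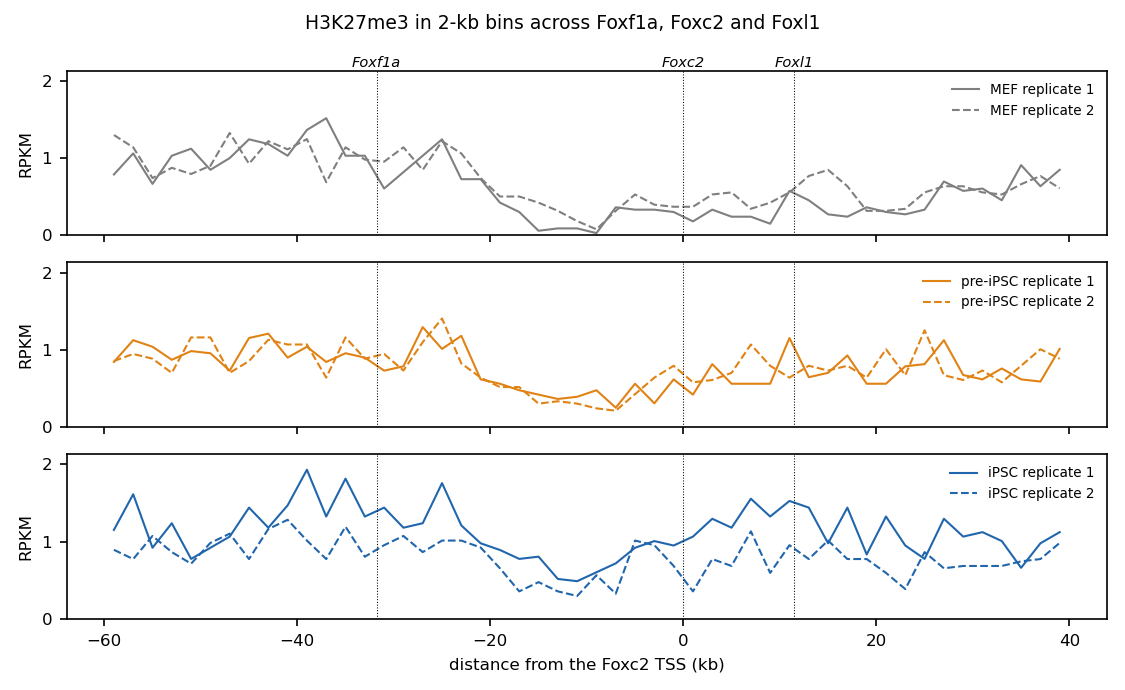
H3K27me3 in RPKM in bins of 2000 bp against distance in kb from the TSS of Foxc2, one panel per cell type, solid lines for replicate 1 and dashed for replicate 2, with dotted lines at the TSSs of Foxf1a, Foxc2 and Foxl1. The MEF lines dip upstream of Foxc2 and stay low across it, and the line of iPSC replicate 1 lies above that of replicate 2 over most of the region. The TSS of Mthfsd, 7792 bp upstream of that of Foxc2, is not marked.

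With a mark counted as present above 1 RPKM in both libraries of a cell type, H3K4me3 alone was found at 15 of 44 members in MEFs, at 12 in pre-iPSCs and at 18 in iPSCs. That is 34.1%, 27.3% and 40.9%, where all genes gave 46.1%, 28.7% and 27.1%. H3K27me3 alone was found in MEFs at Foxa2, Foxd4 and Foxn4 and at 0 members in pre-iPSCs and iPSCs, where all genes gave 0.6%, 0.313% and 0.114%. With a window of 500 bp it was also found at Foxa2 and Foxn1 in pre-iPSCs and at Foxl1 in iPSCs. Both marks together were found at 0 members in any cell type, and at 0.104%, 0.0794% and 0.124% of all genes. Foxa2, a pioneer factor of endoderm, had 1.51 and 1.09 RPKM of H3K27me3 and 1.05 and 0.796 of H3K4me3 in MEFs. Another annotated start of Foxa2 lies 1505 bp downstream, with 0.788 and 1.09 RPKM of H3K27me3 and 1.76 and 1.05 of H3K4me3 in MEFs. By the same rule that start holds H3K4me3 alone, so the state of Foxa2 depends on the start chosen. These states depend on the level set, since above 0.5 RPKM both marks were present at 14, 13 and 14 members (31.8%, 29.5% and 31.8%), where all genes gave 8.17%, 8.88% and 11.6%. The members with both at this level included Foxa2, Foxb1, Foxb2 and Foxn4 in pre-iPSCs and in iPSCs.

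H3 reads, which follow nucleosome occupancy, were called different at 0 of 44 members in each comparison (background 0.0% of 19578 promoters), by edgeR and by DESeq2. At an unadjusted p below 0.05 edgeR had 1 member (Foxn2), 0 and 1 (Foxr2), chosen here after their values were seen. Of all 19578 promoters 350, 108 and 245 reached that level. Without pre-iPSC replicate 2, 11 members were called higher in pre-iPSCs than in MEFs, and 25.2% of all promoters were called, which rests on the pre-iPSC library that stands apart. Over all 6 libraries the highest mean levels were those of Foxs1, Foxl1 and Foxn4 and the lowest those of Foxo4, Foxr2 and Foxj3. The high ranks follow the pair of libraries that stand apart, since the highest member was Foxi2 in both MEF libraries and Foxn1 in replicate 2 of pre-iPSCs and of iPSCs. Foxs1 had 0.274 and 0.288 RPKM in the MEFs, 2.23 and 0.386 in the pre-iPSCs, and 1.21 and 0.379 in the iPSCs, and Foxo4 0.151 and 0.180, 0.296 and 0.0552, and 0.248 and 0.0703. At the TSS itself (-150 to 50 bp) nucleosomes were depleted relative to the flank (the 1000 bp that begin 2000 bp upstream) in 5 of 6 libraries over all 20156 genes, with ratios per bp of 0.583 and 0.624 in the MEFs, 1.33 and 0.544 in the pre-iPSCs, and 0.895 and 0.566 in the iPSCs. The same 5 libraries showed it over the 12 members with a mean of at least 5 FPKM, some of them silent in 1 or 2 cell types, with ratios of 0.248 and 0.487 in the MEFs, 1.20 and 0.328 in the pre-iPSCs, and 0.582 and 0.395 in the iPSCs. The 19 members under 1 FPKM in every library gave 0.679 and 0.705, 1.50 and 0.984, and 1.14 and 0.698, above both the 12 and all genes in every library. The ratios above 1 belong to the libraries of replicate 1 of pre-iPSCs and iPSCs, whose reads follow GC content.

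For H3K9me3, with its single library per cell type, nothing checks the spread between replicates, and the intervals (95%, exact Poisson) cover counting error only. The mean over the 44 members was 0.327 RPKM in MEFs (439 reads), 0.271 in pre-iPSCs (383) and 0.352 in iPSCs (468). The median was 0.295, 0.249 and 0.331 RPKM over the members and 0.197, 0.218 and 0.265 over all promoters, so that from MEFs to pre-iPSCs the former was lower and the latter higher. The highest mean was that of Foxl1, with 11 reads or 0.361 RPKM in MEFs (0.180 to 0.646), 15 reads or 0.468 in pre-iPSCs (0.262 to 0.772) and 35 reads or 1.16 in iPSCs (0.807 to 1.61). The interval of iPSCs lay above both others, and this library holds more reads on chromosome 8. Foxi2 had 0.820, 0.437 and 0.662 RPKM and Foxd4 0.820, 0.468 and 0.397, and the lowest were Foxm1 (0.0984, 0.125 and 0.0993), Foxo3 (0.0984, 0.0624 and 0.165) and Foxk1 (0.0656, 0.156 and 0.132). Foxo4 had 0 reads in iPSCs, which allows up to 3.69 reads or 0.122 RPKM. Like Foxr2, it lies on the X chromosome, whose share of reads was lower in pre-iPSCs and iPSCs, and the part of this in its low H3 and H3K9me3 was not tested.

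The tables give 1 start site a gene, and long members have others. The following starts were looked up in the annotation after the values at the listed TSS were seen. Foxp1 and Foxp2 have several, and that with the most H3K4me3 in MEFs is given. For Foxp4 the start with the larger difference between MEFs and iPSCs is given. The starts of these members were thus picked by the values shown. Their differences between cell types support nothing further. Other starts held as little as 0.474 and 0.255 RPKM in MEFs for Foxp1 and 0.102 and 0.159 for Foxp2. Foxp1 had only 0.395 to 0.747 RPKM of H3K4me3 at its listed TSS in spite of 11.6 FPKM or more, and at a start 407 kb downstream it had 2.00 and 1.21 RPKM in the MEFs, 1.32 and 1.43 in the pre-iPSCs, and 1.15 and 1.25 in the iPSCs. Foxp2 had a start 284 kb downstream with 1.66 and 1.15 RPKM in MEFs and 0.184 to 0.403 in the other libraries. Its listed TSS held 2.13 and 1.81, 0.828 and 0.974, and 1.27 and 0.888. Foxn3 had 1.35 and 1.05, 0.766 and 0.584, and 0.683 and 0.954 RPKM at a start 56.3 kb downstream. Foxp4 had a start 45.7 kb downstream with 0.305 and 0.286 RPKM in the MEFs, 0.828 and 0.682 in the pre-iPSCs, and 0.931 and 1.18 in the iPSCs. The FPKM of a gene sum over such starts, and the promoter levels above describe the listed TSS alone. In the annotation 10 members overlap a gene of the opposite strand (Foxb1, Foxe1, Foxj2, Foxj3, Foxn2, Foxn3, Foxo1, Foxp3, Foxp4 and Foxq1), so their FPKM may hold reads of the partner where libraries keep no strand. Counting either strand, 19 members overlap another gene. Protein-coding partners of the same strand include 4933413G19Rik for Foxm1 and Eif4e3 for Foxp1, and strand would not separate shared reads there. A read-through transcript spans Foxf1a, Foxc2 and Foxl1. The TSS of Foxa3 lies 838 bp from that of Sympk, that of Foxj3 919 bp from that of AA415398 and that of Foxh1 1807 bp from that of Ppp1r16a, so the windows of these 3 members overlap those of the neighbours. Ppp1r16a had 4.49 to 9.69 FPKM in the 6 libraries.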

How the data were processed

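MEFs, pre-iPSCs and iPSCs were profiled with 21 MNase ChIP-seq and 6 RNA-seq libraries. The authors aligned ChIP reads to mm9 with Bowtie 1.0.1, kept unique reads, moved them by 73 bp to the dyad and ran GeneTrack to call nucleosomes. The deposited counts are the reads of each call. The authors aligned RNA reads with TopHat2 2.0.4, and the deposited FPKM were computed with the Cufflinks 2.0.2 suite in 2 tables, each normalized on its own and each holding 1 library of every cell type. Libraries titled as repeats are called replicate 2.

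Counts of calls with a dyad within 1000 bp of the TSS were summed here. They were tested over all promoters by the quasi-likelihood test of edgeR 4.0.16 after filterByExpr and TMM, with the unique reads of the study as library sizes. RPKM use the same sizes without the TMM factors. The log2 changes include these factors, so a small H3K4me3 change can differ in direction between RPKM and log2 change. For H3K4me3 the factors were 1.31 and 1.06 in MEFs and 0.878 to 0.971 in the other libraries. Reads outside calls were not used here. Expression was compared on log2(FPKM + 1) by limma 3.58.1 with a trend and the table as a term, in all genes whose mean reached 0.5 FPKM. P-values were adjusted by Benjamini-Hochberg over all features of a comparison. The tests were checked on simulated data. Scripts ran in Python 3.11.15 (pandas 2.3.3, numpy 2.4.6, scipy 1.17.1, matplotlib 3.10.9) and R 4.3.3, and DESeq2 1.42.0 was an alternative. Promoter sequences were read from mm9, and start sites and overlaps from its GENCODE annotation.

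The members, gene lists and tests were chosen with earlier results of these data known. Named with values were members called in any comparison (at most 12 per mark and comparison), those with a mean of at least 5 FPKM, those of the 2 chromosomal groups, and the 3 highest and 3 lowest for H3 and H3K9me3. Of the members, 1 is counted but not reported here by name. Other members are named with values where the text turns on them, such as Foxd3, Foxa2 and Foxn3, which were chosen after their values were seen. Scaling, filters, windows, thresholds, DESeq2, a replicate block and leaving out each library were the alternatives, and GC offsets and scaling by chromosome were added after seeing the data. Whether same-numbered libraries pair was checked by correlating their deviations from the group means. PCR reads carry no molecular identifiers, so intervals cover counting error only. For FPKM the depth was not used here.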

Additional observations from a re-analysis of the deposited data

How the results depend on the processing

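In order, the values are for pre-iPSCs against MEFs, iPSCs against pre-iPSCs and iPSCs against MEFs. The counts of members in this section stand without the share over all features. They show only how far the calls depend on the processing, and do not compare the members with other genes. Without 1 library the number of members called was 5 to 10, 0 to 7 and 4 to 13 for expression (7, 3 and 8 with all), 0 to 4, 0 to 0 and 5 to 14 for H3K4me3 (4, 0 and 14), 1 to 7, 0 to 1 and 3 to 9 for H3K27me3 (6, 0 and 9) and 0 to 11, 0 to 0 and 0 to 0 for H3. The lone library of a cell type was then assumed to vary like the others. With no filter on low values, expression in pre-iPSCs against MEFs had 4 calls. DESeq2 called 0 and 0 members for H3K4me3 in the comparisons of pre-iPSCs and iPSCs with MEFs, and 0 and 0 for H3K27me3. With a window of 500 bp 2 and 5 members were called for H3K4me3 and 1 and 2 for H3K27me3, with fewer reads per promoter. Of the H3K27me3 calls with 1000 bp, 2 held, Foxs1 in pre-iPSCs and Foxl1 in iPSCs, and 9 were lost. The other call in iPSCs against MEFs was not among the calls with 1000 bp. The calls of Foxc2, Foxj2 and Foxr2 could not be tested with this window. Both marks above 0.5 RPKM were found at 14, 13 and 14 members in MEFs, pre-iPSCs and iPSCs. H3K9me3 scaled to the reads in calls was 0.402, 0.336 and 0.435 RPKM. No direction of a called member was reversed under any alternative. A pseudocount of 0.1 gave 8, 4 and 11 expression calls and quantile scaling 7, 4 and 9. GC offsets gave 4, 0 and 13 for H3K4me3 and 7, 0 and 9 for H3K27me3, and scaling by chromosome 3, 0 and 11, and 6, 0 and 8. In the ChIP fits the numbers of the replicates were not taken to pair the samples, since not every pair of cell types correlated above 0.1 in any mark. Same-numbered libraries gave -0.043 to 0.115 in H3K4me3 and -0.047 to 0.057 in H3K27me3. The expression fits did hold the replicate number as a block, since the table and the replicate number are the same term there. In expression the same-numbered libraries gave -0.205 to 0.346. In H3, pre-iPSCs and iPSCs gave 0.795, both replicate 1 libraries being those that follow GC content, and the other pairs -0.031 and 0.008. With the replicate block the calls were 4, 0 and 14 for H3K4me3, 6, 0 and 7 for H3K27me3 and 0, 0 and 0 for H3, and without the table as a block 7, 3 and 9 for expression. The H3K27me3 calls of Foxi1 and Foxq1 in iPSCs against MEFs were those lost with the block, and that of Foxq1 was also lost without TMM, with a window of 500 bp and with calls of at least 2 reads. Promoters of few reads and 2 libraries per cell type limit what the marks can show, and the cause of each lost call was not tested.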
